A study of Mus musculus with 15 samples.

Results

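Transcript levels of 42 genes of the amino acid branch of the ATF4 stress response were compared in mouse pancreatic stellate cells and in pancreatic cancer cells grown in medium conditioned by them. The genes were picked by name from what is known of ATF4 and its targets, with earlier results of these data known. Every probe whose gene name in the scanner files was one of the 42 was used. They were 6 transcription factors, 6 stress effectors and feedback genes, 8 genes of amino acid synthesis, 4 genes of the mitochondrial folate cycle, 5 amino acid transporters and 13 genes of tRNA charging and export. On the array they held 77 of 56605 probes, and they were 42 of its 37009 gene names.

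ATF4 is a transcription factor whose protein is made mainly when the translation initiation factor eIF2 is phosphorylated, as happens when a cell lacks an amino acid or when unfolded proteins collect in the endoplasmic reticulum. Much of this control acts on translation, so the mRNA and the protein of ATF4 need not move together. With partners of the C/EBP family ATF4 binds short promoter elements, and its known targets import and make amino acids, attach them to tRNAs, feed serine into mitochondrial folate metabolism, and restrain or end the stress response.

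Pancreatic stellate cells (PSC) are fibroblast-like cells of the pancreas that lay down matrix once activated. Here they came from wild-type (WT) or heterozygous (HT) mice and were grown for 2 weeks, by which time they were activated. The cancer cells, which the labels call neoplastic, spent 24 h in control medium, in medium conditioned by WT PSC (WT medium) or in medium conditioned by HT PSC (HT medium). Each of these 5 groups had 3 arrays, numbered 1 to 3. The heterozygous locus, the cancer cell line, the age of the mice and the make-up of the control medium are not given in the sources used here. Whether replicates were separate mice or cultures is not stated, so the p-values speak of the spread among these samples alone, and this spread may be technical. As every sample was a whole culture, fewer cells of a type and less RNA per cell cannot be told apart.

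Some of these genes carry a known form of the ATF4 binding element in the promoter, and the stretches around it are shown for 6 members because they are the sequences through which ATF4 is known to act on such genes. The motif searched was TGATGNAAN, on both strands, in the 250 bases before the transcription start (RefSeq promoters, GRCm38.p6). The capitals mark the motif, and up to 40 bases stand on each side, cut at the start. Each is written 5′ to 3′ on the strand of its gene, so that the motif reads from the opposite strand in all but Asns.
Chac1: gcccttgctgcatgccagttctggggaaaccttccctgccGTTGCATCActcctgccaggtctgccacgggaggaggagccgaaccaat
Atf3: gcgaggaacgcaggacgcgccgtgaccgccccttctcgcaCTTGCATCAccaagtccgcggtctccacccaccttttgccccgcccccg
Asns: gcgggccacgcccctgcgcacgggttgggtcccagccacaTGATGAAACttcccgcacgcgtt
Nupr1: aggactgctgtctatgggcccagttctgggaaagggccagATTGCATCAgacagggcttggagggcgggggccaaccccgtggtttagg
Aars: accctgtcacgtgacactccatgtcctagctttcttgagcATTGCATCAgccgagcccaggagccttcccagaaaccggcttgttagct
Tars: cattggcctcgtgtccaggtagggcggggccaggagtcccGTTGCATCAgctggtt

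These stretches lie at chr2:119351008-119351096 on the plus strand (Chac1), chr1:191183396-191183484 on the minus strand (Atf3), chr6:7693210-7693272 on the minus strand (Asns), chr7:126625533-126625621 on the minus strand (Nupr1), chr8:111033689-111033777 on the plus strand (Aars) and chr15:11399659-11399714 on the minus strand (Tars). The motif ended 186 bases before the start in Chac1, 103 bases before it in Atf3 and in Nupr1, 105 in Aars, 15 in Asns and 8 in Tars. A promoter was at hand for 34 members, and 10 of these (29.4%) held the motif, against 1052 of 27025 genes (3.89%). The other 4 were Pck2, Vldlr, Gars and Slc7a11, whose promoter held 2. By role, 2 of 6 transcription factors, 2 of 6 effectors and 2 of 7 synthesis genes held it. So did 1 of 3 transporters, 3 of 9 genes of tRNA charging and export and 0 of 3 folate genes. Xpot, the tRNA exporter, did not hold it. Among members that were higher in at least 1 conditioned medium, 7 of 17 held it, and among the rest 3 of 17. A match describes letters in this window and is no measured binding. The genes were picked as ATF4 and its known targets, so a share above that of all genes could be foreseen and is no result.

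All 42 members passed the filter on dim probes in each comparison, as a gene was tested where its brightest probe was well above background on every array of at least 1 group of the fit. Levels are log2 signals relative to the array's 75th percentile, so that 0 equals this percentile. A difference is given in log2 units ± its SE from limma, with 3 arrays per group and a p adjusted by Benjamini and Hochberg over all genes tested. Values of 3 arrays stand in the order of their replicate numbers.

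The 75th percentile lay between 913 and 1450 signal units, 54.3% to 63.8% of spots were well above background, and 0 spots were saturated. The arrays filled 2 slides, each with arrays of every group. Over the 42 genes HT medium array 2 was mostly the lowest of its group and PSC WT array 1 the highest, so results are also given without them. The slope of the spike-in controls was 0.909 to 0.927 on the PSC WT arrays, 0.896 on PSC HT array 2 and 1.05 to 1.06 on the other 11. Of 12 markers of stellate cells and fibroblasts, 12 were well above background on every PSC array and 3 to 6 on the cancer cell arrays, where those on all 9 arrays were Acta2, Col1a1 and Vim. All 12 epithelial markers were well above background in the cancer cells, and 6 to 8 were in PSC, where Epcam, Elf3 and Ocln were not.

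**Figure D1:**
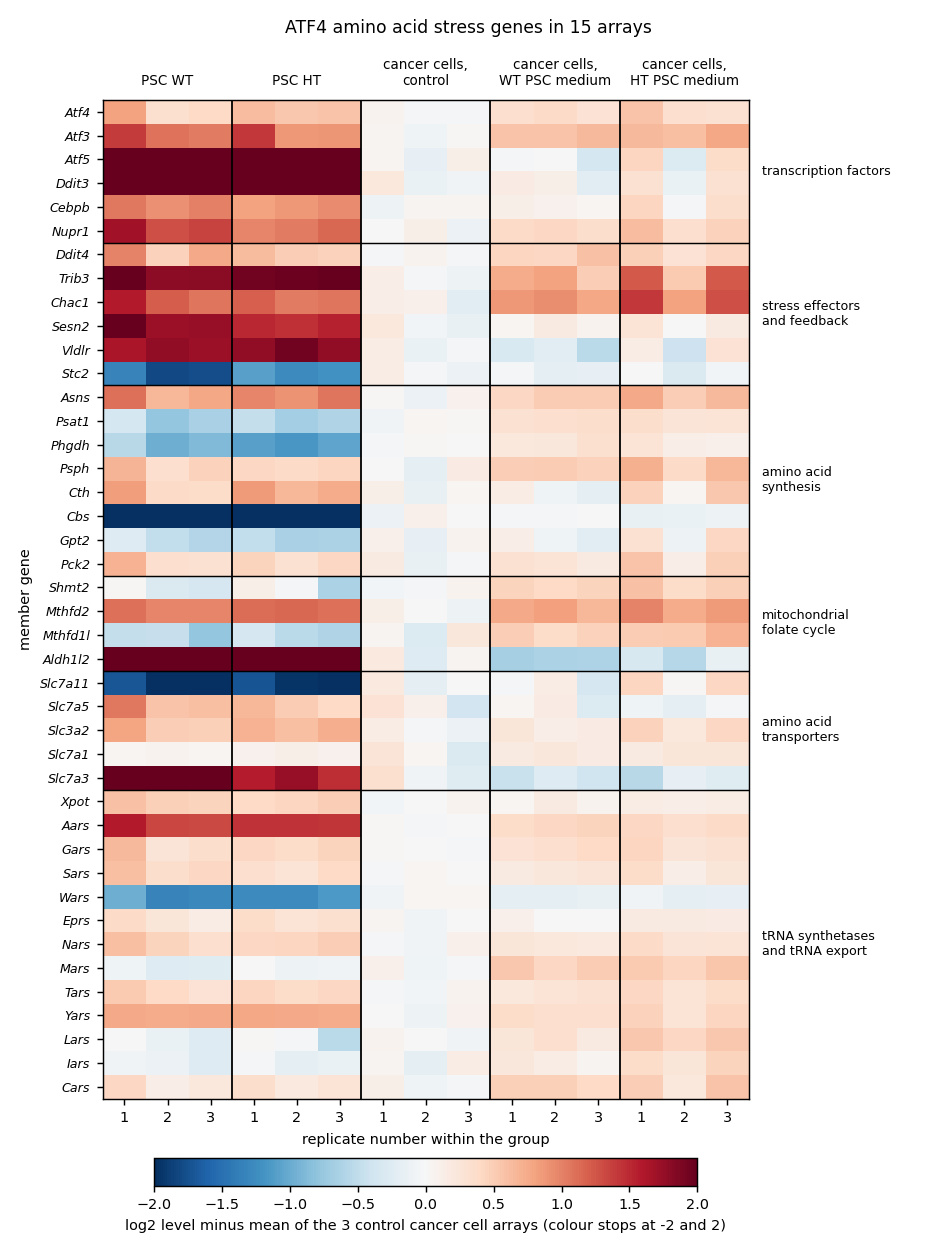
Level of each of the 42 genes on each of the 15 arrays, as the log2 level minus the mean of the 3 control cancer cell arrays (colour scale, which stops at -2 and 2). Rows are genes grouped by role and columns are arrays by sample group and replicate number. Atf5, Ddit3 and Aldh1l2 are above the cancer cells on all 6 PSC arrays and Cbs and Slc7a11 below, and Chac1, Trib3 and Mthfd2 are higher on all 6 arrays of conditioned medium than on the controls.

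Cancer cells that had spent 24 h in conditioned medium held more mRNA of many ATF4 genes. In WT medium 14 of the 42 genes rose and 1 fell, and in HT medium 19 rose and 0 fell. The largest rises in HT medium were of Chac1, 2.25-fold, Trib3, 1.99-fold, Mthfd2, 1.81-fold, Atf3, 1.6-fold, and Asns, 1.55-fold. Of all 19687 genes tested, 5.95% passed the test in WT medium, 2.8% higher and 3.15% lower. In HT medium 5.47% passed, 2.97% higher and 2.5% lower. The median difference over the 42 genes was 0.24 in WT medium and 0.34 in HT medium, against 0.03 and 0.01 over all genes tested. Both comparisons used the same 3 control arrays, so their values are set side by side without a measure of their likeness. Together 13 genes rose in both, 6 passed only in HT medium and Cars only in WT medium. With the replicate number as a block, 13 rose in WT medium, Nupr1 being the gene lost (adjusted p = 0.0783). With that block 15 rose in HT medium, where Nars, Psat1, Ddit4 and Gars were lost.

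In all, 31 of 42 differences were above 0 in WT medium and 36 in HT medium, against 55.8% and 52.6% of all genes tested. At an unadjusted p under 0.05 the genes numbered 25 and 28, against 20.2% and 19.8%. In WT medium all 3 arrays lay above all control arrays for 23 genes and below them for 4, against 14% and 11.3% of all genes tested. In HT medium 26 genes lay above and 0 below, against 14.2% and 10.2%. The counts fell when an array of either compared group was left out, which also left fewer arrays to test. Without WT medium array 1, 2 or 3, 9, 6 or 5 genes passed in WT medium. Without control array 1, 2 or 3, 10, 11 or 11 did. In HT medium 8 or 10 passed without control array 1 or 2 and 8 or 9 without HT medium array 1 or 3. The medians over members in these fits were 0.22 to 0.25 in WT medium and 0.28 to 0.36 in HT medium. Centring arrays on their median in place of the 75th percentile left 6 and 9. Each of the 15 and 19 called differences kept its sign in all 25 alternatives tried. As the groups of each did not overlap, leaving out an array or keeping to 1 slide could not turn it.

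**Figure D2:**
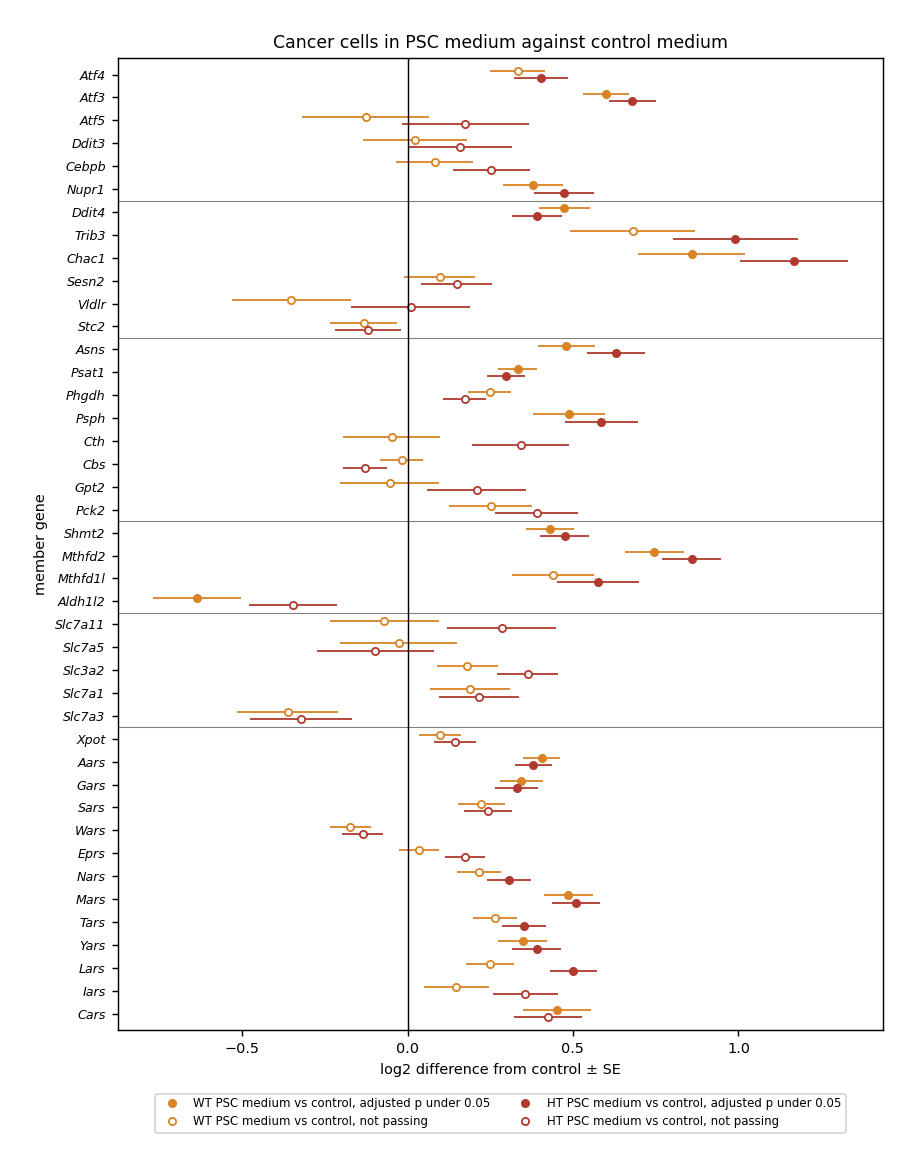
Difference of each of the 42 genes from control medium in WT medium and in HT medium, in log2 units, with bars of 1 SE. Filled points passed the test at an adjusted p of 0.05. Most points lie above 0 in both media, with Chac1 the highest, and Aldh1l2 is the only gene called lower, in WT medium.

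Stellate cell markers in the cancer cells were set beside these results. The summed level of the 12 stellate cell and fibroblast markers was 6.45 to 6.53 in control medium, 6.51 to 6.62 in WT medium and 6.55 to 6.70 in HT medium, and Col3a1, Dcn, Des, Lum, Pdgfra and Pdgfrb were not well above background on any cancer cell array. The 3 markers bright enough to be tested were Acta2, smooth muscle actin, Col1a1, a collagen chain, and Vim, a filament protein, and none passed. Col1a1 stood at 0.81 in WT medium (adjusted p = 0.165) and 0.37 in HT medium (0.556), above all controls in both. Acta2 stood at 0.34 (0.0871), above all controls, and 0.21 (0.284), and Vim at -0.03 (0.831) and, above all controls, at 0.12 (0.346). The Col1a1 difference in WT medium lay within the range of the rises of called members there. The part of these markers in the results was not tested.

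Of the 6 transcription factors, 2 rose in WT medium (1 with the replicate number as a block) and 3 in HT medium, the latter with Atf4 itself. Its level was 6.48, 6.39 and 6.38 in control medium, 6.75, 6.79 and 6.71 in WT medium and 6.99, 6.76 and 6.72 in HT medium. Every array of either conditioned medium read higher than every control array, while the ranges of the conditioned media overlapped. The difference was 0.40 ± 0.08 in HT medium (adjusted p = 0.0279) and 0.33 ± 0.08 in WT medium, which missed the threshold (adjusted p = 0.054). Over 25 alternatives Atf4 passed in 11 in HT medium and in 8 in WT medium, a threshold of 0.1 among them. The second Atf4 probe gave 0.43 in WT medium (adjusted p over probes = 0.0277) and 0.49 in HT medium (0.0198).

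Atf3 encodes a stress-induced factor that follows ATF4 in the response and acts largely as a repressor. It read -0.62, -0.76 and -0.65 in control medium against -0.11, -0.11 and -0.03 in WT medium and -0.03, -0.07 and 0.10 in HT medium. The control arrays stood apart below all 6 others. The rise was 0.60 ± 0.07 in WT medium (adjusted p = 0.0021) and 0.68 ± 0.07 in HT medium (0.00172), and it passed in 23 of 25 alternatives in each medium. Nupr1, a small stress-induced nuclear protein, read 4.13, 4.25 and 4.01 in control medium, 4.51, 4.54 and 4.48 in WT medium and 4.75, 4.47 and 4.59 in HT medium. Here too no conditioned array reached down to the controls. Its difference was 0.38 ± 0.09 in WT medium (adjusted p = 0.0457, or 0.0783 with the replicate number as a block) and 0.47 ± 0.09 in HT medium (0.0212). A second Nupr1 probe, placed upstream of the first at chr7:133769416-133769475 (mm9, minus strand), gave -0.17 and -0.03.

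The other 3 factors did not pass in the cancer cells. Ddit3, which encodes CHOP, the factor tied to cell death under lasting stress, read -1.25, -1.58 and -1.53 in control medium, -1.29, -1.33 and -1.68 in WT medium and -1.15, -1.58 and -1.15 in HT medium. These ranges overlapped throughout. Its differences were 0.02 ± 0.16 (95% interval -0.34 to 0.38) and 0.16 ± 0.16 (95% interval -0.20 to 0.52), with adjusted p of 0.95 and 0.65. The second Ddit3 probe gave -0.27 and -0.20 and did not pass either. Atf5, a close relative of ATF4, differed by -0.13 in WT medium and 0.17 in HT medium, and Cebpb, a partner of ATF4 on DNA, by 0.08 and 0.25.

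**Figure D3:**
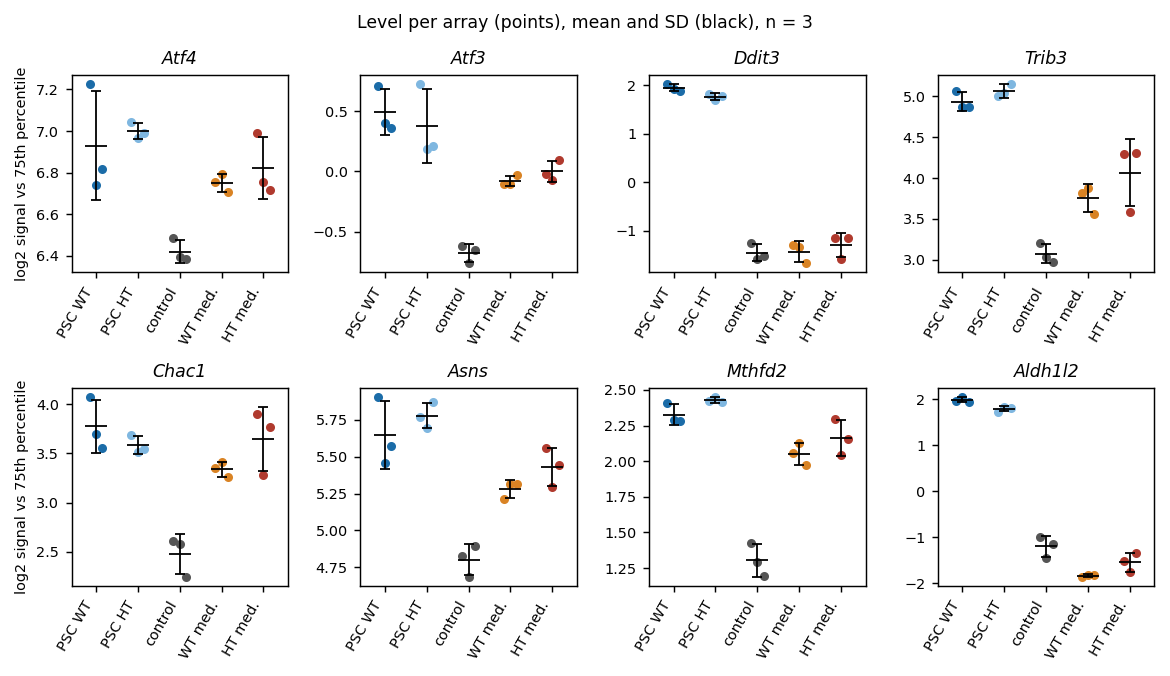
Level of Atf4, Atf3, Ddit3, Trib3, Chac1, Asns, Mthfd2 and Aldh1l2 on each array, as log2 signal relative to the 75th percentile of the array, in the 5 sample groups. Points are arrays, and black bars are the mean and SD of 3 arrays. In the cancer cells the control arrays lie below all conditioned arrays for all of these but Ddit3, whose groups overlap, and Aldh1l2, whose controls lie above the WT medium arrays.

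Of the effectors and feedback genes, 2 of 6 rose in WT medium and 3 in HT medium, and Chac1 had the largest difference of the set in both. CHAC1 cuts glutathione, the main small antioxidant of the cell, and its gene is a well-known target of ATF4. Chac1 read 2.61, 2.58 and 2.25 in control medium, 3.35, 3.41 and 3.26 in WT medium and 3.90, 3.28 and 3.77 in HT medium. The lowest conditioned array lay above the highest control array, and the lowest array of HT medium fell within the range of WT medium. The rise was 0.86 ± 0.16 in WT medium (adjusted p = 0.0183) and 1.17 ± 0.16 in HT medium (0.00591). Within slide 1 it was 0.92 and 1.40, and within slide 2 0.75 and 0.70.

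Trib3 encodes a pseudokinase that binds ATF4 and CHOP and damps the response. It read 3.20, 3.04 and 2.98 in control medium, 3.82, 3.88 and 3.56 in WT medium and 4.30, 3.59 and 4.30 in HT medium. All 6 conditioned arrays were higher than the controls, and HT medium array 2 was well below the other HT medium arrays. Only the difference in HT medium passed, at 0.99 ± 0.19 (adjusted p = 0.0218), against 0.68 ± 0.19 in WT medium (0.0804). Without HT medium array 2 in the fit, whose spread all cancer cell groups share, the WT medium difference had an adjusted p of 0.0113.

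Ddit4 encodes REDD1, an inhibitor of mTORC1, the kinase complex that drives growth when amino acids are plentiful. Its level was 3.88, 3.99 and 3.88 in control medium, 4.35, 4.32 and 4.50 in WT medium and 4.39, 4.20 and 4.33 in HT medium, again without overlap with the controls. It rose by 0.47 ± 0.08 in WT medium (adjusted p = 0.00916) and by 0.39 ± 0.08 in HT medium (0.023). The HT medium call of Ddit4 was lost with the replicate number as a block. Sesn2, whose protein senses leucine and also restrains mTORC1, differed by 0.10 and 0.15 and did not pass. Neither did Vldlr, a lipoprotein receptor, at -0.35 and 0.01, or Stc2, a secreted glycoprotein, at -0.13 and -0.12.

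In amino acid synthesis, 3 of 8 genes rose, in both media. Asns, the enzyme that makes asparagine and the textbook target of amino acid shortage, read 4.82, 4.69 and 4.89 in control medium, 5.21, 5.32 and 5.31 in WT medium and 5.56, 5.29 and 5.44 in HT medium. Controls and conditioned arrays did not overlap, and both Asns probes rose in both media. The brighter probe gave 0.48 ± 0.09 (adjusted p = 0.0151) and 0.63 ± 0.09 (0.00553). Psat1 and Psph encode the last enzymes of serine synthesis. Psat1 read 4.72, 4.83 and 4.81 in control, 5.09, 5.13 and 5.14 in WT and 5.14, 5.05 and 5.07 in HT medium. Psph read 3.1, 2.92 and 3.26 in control, 3.59, 3.59 and 3.55 in WT and 3.80, 3.48 and 3.75 in HT medium. Both were higher on every conditioned array. Psat1 rose by 0.33 ± 0.06 (adjusted p = 0.0136) and 0.30 ± 0.06 (0.0246), and Psph by 0.49 ± 0.11 (0.0365) and 0.59 ± 0.11 (0.0201). With the replicate number as a block Psat1 no longer passed in HT medium.

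Phgdh, the first enzyme of that route, differed by 0.25 in WT medium (adjusted p = 0.0676) and 0.17 in HT medium (0.186) and did not pass. The same held for Cth and Cbs, which turn homocysteine toward cysteine, at -0.05 and -0.02 in WT medium and 0.34 and -0.13 in HT medium. Pck2, a mitochondrial enzyme that makes phosphoenolpyruvate, differed by 0.25 and 0.39, and Gpt2, the mitochondrial alanine aminotransferase, by -0.05 and 0.21.

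All 4 genes of the mitochondrial folate cycle, which takes one-carbon units from serine, had an unadjusted p under 0.05 in each medium, but not in 1 direction. Mthfd2, the dehydrogenase and cyclohydrolase of the cycle, read 1.43, 1.29 and 1.20 in control medium, 2.06, 2.13 and 1.97 in WT medium and 2.29, 2.04 and 2.15 in HT medium. This gap to the controls was among the clearest of the set. The rise was 0.75 ± 0.09 (adjusted p = 0.00241) and 0.86 ± 0.09 (0.00179), passed in 23 of 25 alternatives in each medium, and was matched by the second Mthfd2 probe, at 0.77 and 0.97. Shmt2, which splits serine to glycine, read 3.0, 3.05 and 3.14 in control, 3.52, 3.46 and 3.51 in WT and 3.65, 3.42 and 3.55 in HT medium. It rose by 0.43 ± 0.07 (adjusted p = 0.0119) and 0.48 ± 0.07 (0.00962).

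Mthfd1l, which releases formate at the end of the cycle, read 0.11, -0.22 and 0.28 in control medium, 0.55, 0.42 and 0.51 in WT medium and 0.57, 0.57 and 0.76 in HT medium. It passed in HT medium, at 0.58 ± 0.12 (adjusted p = 0.0336), and not in WT medium, at 0.44 ± 0.12 (0.082). Aldh1l2, which burns the folate-bound unit to carbon dioxide, went the other way. It read -1.0, -1.45 and -1.14 in control medium, -1.86, -1.83 and -1.81 in WT medium and -1.52, -1.76 and -1.35 in HT medium, so that the WT medium arrays lay below all controls and those of HT medium overlapped them. It fell in WT medium, at -0.64 ± 0.13 (adjusted p = 0.0274), and was -0.35 ± 0.13 in HT medium (0.189). A second Aldh1l2 probe gave -0.73 and -0.29 and the last, at chr10:82957547-82957606 (mm9, minus strand), gave 0.21 and 0.61, where it was well above background on 2 of 3 control arrays.

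None of the 5 amino acid transporters passed in either medium by limma, with 1 at an unadjusted p under 0.05 in each. Slc3a2, the heavy chain that pairs with several light chains at the membrane, differed by 0.18 ± 0.09 and 0.36 ± 0.09, the latter with an adjusted p of 0.0624. Of its light chains, Slc7a11, the cystine importer, differed by -0.07 and 0.28, and Slc7a5, a leucine carrier, by -0.03 ± 0.18 and -0.10 ± 0.18. The Slc7a5 probe read low, though well above background, with means of -3.08 in control, -3.10 in WT and -3.17 in HT medium. The carriers of basic amino acids gave 0.19 and 0.22 for Slc7a1 and -0.36 and -0.32 for Slc7a3.

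The aminoacyl-tRNA synthetases, which load each tRNA with its amino acid, and the exporter Xpot form the largest role. Of these 13 genes 5 rose in WT medium and 7 in HT medium, with medians of 0.25 and 0.35, and 12 of 13 differences were above 0 in each. Aars, the alanine enzyme, read 3.14, 3.08 and 3.1 in control medium, 3.47, 3.52 and 3.55 in WT medium and 3.53, 3.45 and 3.48 in HT medium. The methionine enzyme, Mars, read 2.15, 1.96 and 2.02 in control, 2.59, 2.46 and 2.55 in WT and 2.57, 2.48 and 2.61 in HT medium. Neither had a conditioned array within the control range. Aars rose by 0.41 ± 0.06 (adjusted p = 0.00455) and 0.38 ± 0.06 (0.00729), and Mars by 0.49 ± 0.07 (0.00668) and 0.51 ± 0.07 (0.00659). A second Aars probe, at chr8:113570411-113570470 (mm9, plus strand), gave -0.04 and 0.19.

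The enzymes for glycine and tyrosine come next. Gars read 6.40, 6.37 and 6.34 in control, 6.67, 6.71 and 6.77 in WT and 6.80, 6.63 and 6.67 in HT medium. Yars read 1.89, 1.78 and 1.97 in control, 2.25, 2.21 and 2.22 in WT and 2.34, 2.16 and 2.31 in HT medium. Both rose in both media without overlap with the controls. The differences of Gars were 0.34 ± 0.07 (adjusted p = 0.018) and 0.33 ± 0.07 (0.0244), and those of Yars 0.35 ± 0.07 (0.0295) and 0.39 ± 0.07 (0.0212). The HT medium call of Gars was lost with the replicate number as a block. The other Yars probes gave -0.04 and 0.32 in WT medium and 0.09 and 0.22 in HT medium.

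The enzymes for threonine, asparagine and leucine passed in HT medium only. Tars read 3.65, 3.63 and 3.75 in control, 3.89, 3.95 and 3.98 in WT and 4.09, 3.94 and 4.05 in HT medium. Nars read 3.15, 3.09 and 3.26 in control, 3.40, 3.38 and 3.37 in WT and 3.55, 3.43 and 3.44 in HT medium. Lars read 3.75, 3.67 and 3.61 in control, 3.92, 4.01 and 3.86 in WT and 4.22, 4.09 and 4.22 in HT medium. In each of them all conditioned arrays were above the controls, in WT medium too. The differences were 0.35 ± 0.07 for Tars (adjusted p = 0.0203, with 0.26 and 0.0555 in WT medium), 0.31 ± 0.07 for Nars (0.0336, with 0.22 and 0.104) and 0.50 ± 0.07 for Lars (0.00649, with 0.25 and 0.0871). With the replicate number as a block Nars no longer passed in HT medium.

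Cars, the cysteine enzyme, read 4.51, 4.30 and 4.36 in control medium, 4.87, 4.86 and 4.79 in WT medium and 4.88, 4.60 and 4.96 in HT medium. It rose in WT medium, by 0.45 ± 0.10 (adjusted p = 0.0398), and its 0.42 ± 0.10 in HT medium missed the threshold (0.0526). The remaining 5 did not pass in either medium. Iars, for isoleucine, differed by 0.15 and 0.36, Sars, for serine, by 0.22 and 0.24, and Eprs, for glutamate and proline, by 0.03 and 0.17. Xpot, which exports tRNA from the nucleus, differed by 0.10 and 0.14. Wars, for tryptophan, was the only 1 of the 13 below 0, at -0.17 and -0.14.

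**Figure D4:**
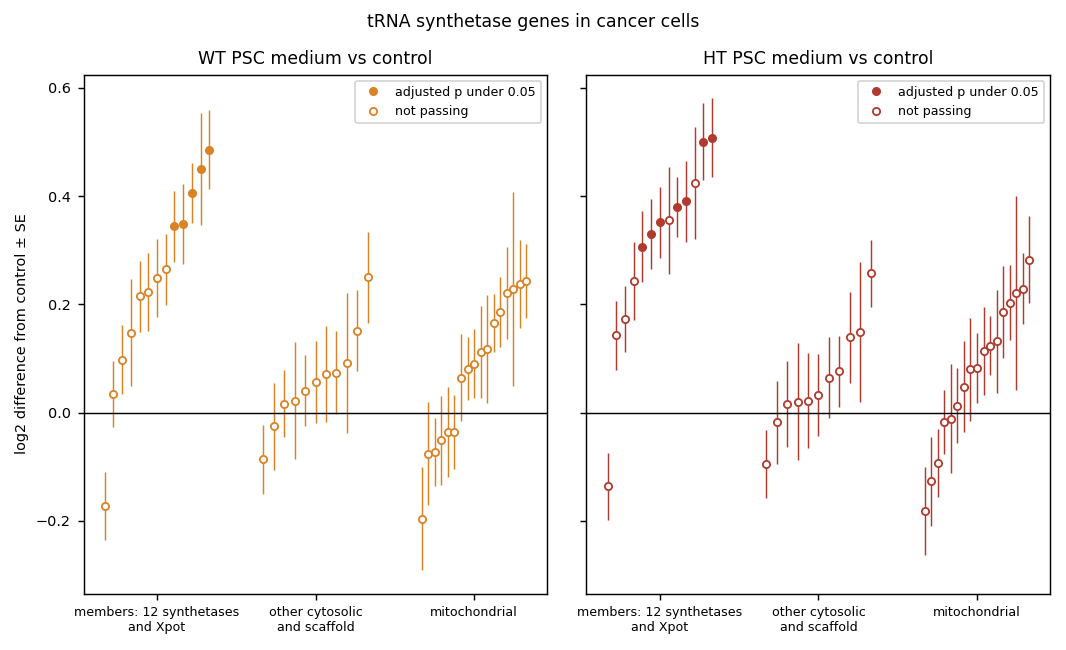
Difference from control medium, in log2 units with bars of 1 SE, of 12 synthetases and Xpot among the members, of 11 other cytosolic synthetases and scaffold proteins and of 17 mitochondrial synthetases, in WT medium (left) and HT medium (right). Points are genes, ordered by their difference within each list, and filled points passed the test. The members have 5 and 7 filled points and the other lists 0.

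Synthetases outside the set gave a background for these. Of 11 other cytosolic synthetases and scaffold proteins 0 passed in either medium by limma, with medians of 0.06 and 0.03 and 1 at an unadjusted p under 0.05 in each medium. Of 17 mitochondrial synthetases 0 passed, with medians of 0.09 and 0.08 and 5 and 4 at an unadjusted p under 0.05. The difference between these lists was not tested.

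In related pathways single genes passed. Of 21 tested genes for eIF2 kinases, phosphatases and partners of ATF4, 0 rose and 1 fell in WT medium, and 2 rose and 1 fell in HT medium. The gene that fell was Nfe2l2, which encodes NRF2, the master factor of antioxidant genes, at -0.45 ± 0.06 (adjusted p = 0.00297) and -0.31 ± 0.06 (adjusted p = 0.0173). Those that rose in HT medium were Gdf15, a stress-induced secreted factor, at 0.73 ± 0.16 (adjusted p = 0.0365), and Myc, at 0.35 ± 0.07 (adjusted p = 0.0323). Of 18 endoplasmic reticulum stress genes, Atf6, a sensor of unfolded proteins, rose in both media, at 0.27 ± 0.06 (adjusted p = 0.0323) and 0.37 ± 0.06 (adjusted p = 0.0107), and Edem1, a gene of protein disposal, in HT medium, at 0.30 ± 0.07 (adjusted p = 0.0499). Their medians were 0.11 and 0.13.

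Other genes of amino acid synthesis and glutamine use split by direction, with 2 of 13 higher and 1 lower in each medium. Aldh18a1, which starts proline synthesis, rose by 0.41 ± 0.06 (adjusted p = 0.00807) and 0.60 ± 0.06 (adjusted p = 0.00183), and Prodh, which starts proline breakdown, by 0.51 ± 0.08 (adjusted p = 0.0074) and 0.52 ± 0.08 (adjusted p = 0.00873). Glul, which makes glutamine, fell, at -0.41 ± 0.08 (adjusted p = 0.0233) and -0.38 ± 0.08 (adjusted p = 0.035). Of 18 other one-carbon, serine and glycine genes 0 passed in either medium by limma, with 3 and 5 at an unadjusted p under 0.05. Of 15 other amino acid transporters 0 passed, with 0 and 2 at that level.

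HT medium and WT medium were then compared with each other. None of the 42 genes passed by limma, with a smallest adjusted p of 0.923, and 0 of 19687 genes did (960, or 4.88%, at an unadjusted p under 0.05). Among the members 2 had an unadjusted p under 0.05, Cth at 0.39 ± 0.15 (adjusted p = 0.984) and Lars at 0.25 ± 0.07 (0.923). The median over members was 0.09, against 0.00 over all genes, and 34 of 42 differences were above 0, against 48.1%. The groups did not overlap for 7 members, 6 higher and 1 lower, against 6.64% and 4.83% of all genes tested. The 95% intervals left room for sizeable differences: they ran -0.06 to 0.68 for Chac1, -0.12 to 0.74 for Trib3, -0.05 to 0.35 for Asns and -0.12 to 0.26 for Atf4.

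HT medium array 2 was the lowest array of its group in 35 of 42 members (83.3%), against 32.7% of all genes tested. It lay on slide 2, and the other HT medium arrays on slide 1. Within slide 1 the median member difference of HT medium from control was 0.37, and within slide 2 it was 0.23, against 0.02 and -0.02 over all genes. For WT medium these medians were 0.21 and 0.26. Between the media the median was 0.13 within slide 1 and -0.04 within slide 2, so the direction of that comparison differed by slide. Without HT medium array 2, 18 genes passed in HT medium and the median was 0.40.

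The comparison of cell types set PSC WT against cancer cells in control medium. The spike-in slope was 0.909 to 0.927 on the PSC WT arrays and 1.05 to 1.06 on the control arrays. So slope and cell type cannot be told apart between these groups. With the PSC HT arrays of slope over 1 in place of PSC WT, 28 members were higher and 7 lower. Most members were higher in PSC: 28 of 42 were higher and 8 lower, with a median of 0.50 against 0.04 over all genes. The background was high, as 71.4% of 21928 genes passed, 36.1% higher and 35.2% lower. Without overlap, 29 members lay higher and 9 lower, against 75.6% of all genes (38.1% and 37.5%). At an unadjusted p under 0.05 were 36, against 73.7%, and above 0 were 30, against 51.5%. With arrays centred on their median, which moved the median of all genes by -0.39, 25 members passed, 13 higher and 12 lower. By role, all 6 transcription factors were higher, or 5 with median centring. Of the effectors 5 were higher and 1 lower (4 and 1 with median centring). Amino acid synthesis was split, 4 higher and 4 lower (0 and 4). The folate genes counted 2 and 1 (2 and 2), the transporters 3 and 1 (1 and 1), and the tRNA group 8 and 1 (1 and 4).

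The members that median centring moved below the threshold were Atf4, Ddit4, Asns, Psph, Cth, Pck2, Slc3a2, Slc7a5, Yars, Nars, Gars, Tars, Sars, Xpot and Eprs, so that their call as higher in PSC depends on the scaling. Shmt2, Mars, Lars and Iars, uncalled otherwise, were then lower, at -0.59, -0.58, -0.52 and -0.54.

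**Figure D5:**
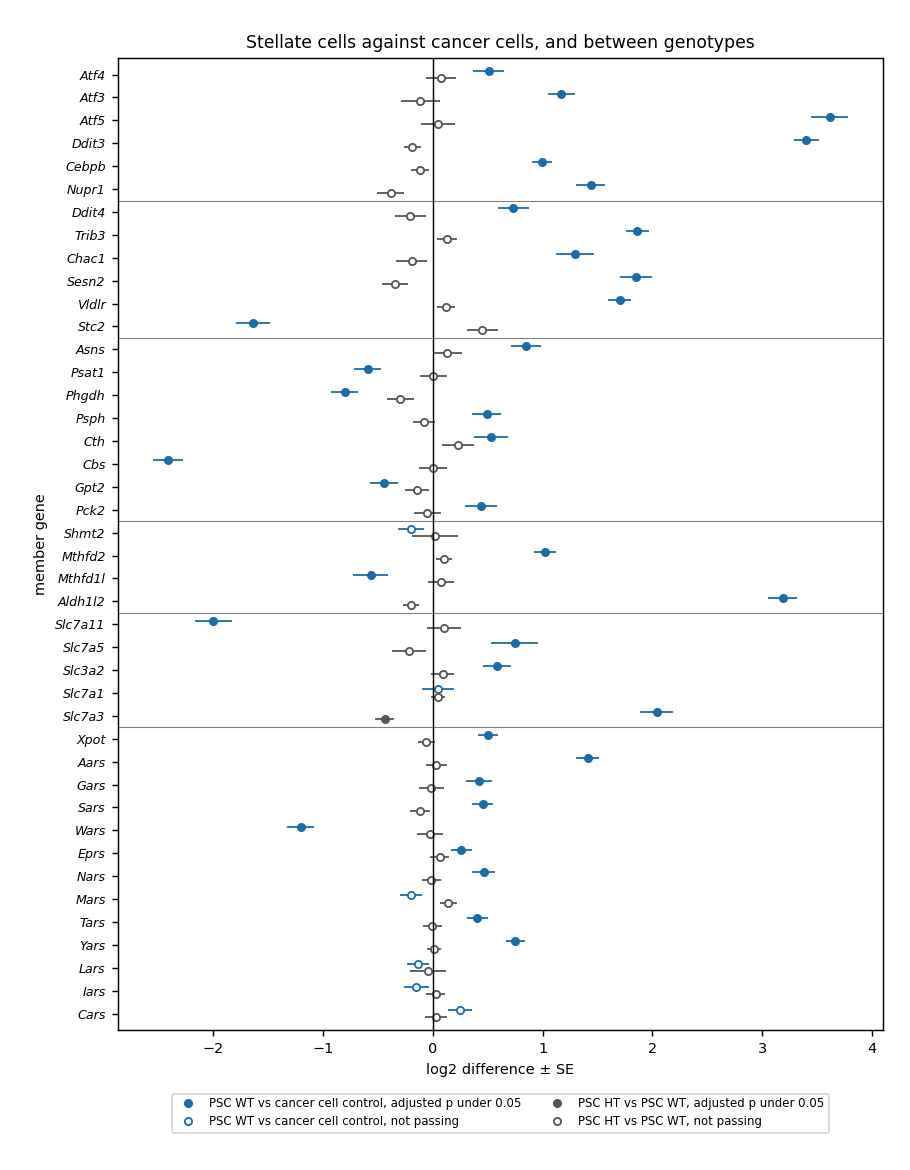
Difference between PSC WT and cancer cells in control medium (blue) and between PSC HT and PSC WT (grey) for each of the 42 genes, in log2 units with bars of 1 SE, with lines between roles. Filled points passed the test at an adjusted p of 0.05. Between the cell types Atf5, Ddit3 and Aldh1l2 stand over 3 units above 0 and Cbs and Slc7a11 at 2 units or more below it, while between the genotypes only Slc7a3 is filled.

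Ddit3 and Atf5, which gave no call between the media, marked the cell types most strongly. Atf5 read 7.54, 6.97 and 7.13 in PSC WT and 7.17, 7.26 and 7.36 in PSC HT, against 3.65, 3.43 and 3.72 in control cancer cells. In WT medium it read 3.57, 3.60 and 3.25 and in HT medium 4.04, 3.33 and 3.97. PSC and cancer cells lay far apart, and the difference was 3.61 ± 0.17 (adjusted p = 2.58e-06), or 12.2-fold. Ddit3 read 2.03, 1.92 and 1.89 in PSC WT and 1.82, 1.69 and 1.78 in PSC HT, above every cancer cell array. It differed by 3.40 ± 0.12 (adjusted p = 5.71e-07), or 10.6-fold, and both held in all 23 alternatives.

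Of the other factors, Nupr1 read 5.81, 5.41 and 5.48 in PSC WT and 5.10, 5.18 and 5.27 in PSC HT, and was higher than in control cancer cells by 1.44 ± 0.13 (adjusted p = 8.34e-05). Its second probe went the other way, being well above background on all cancer cell arrays and on 0 PSC arrays, at least 2.1-fold lower in PSC WT (adjusted p over probes = 0.000171). Here "at least" sets the mean of the brighter group against the detection floor or the reading of the other, whichever was higher. The mean over the 2 probes gave 0.10 (adjusted p = 0.47). Atf3 read 0.71, 0.40 and 0.36 in PSC WT and 0.73, 0.19 and 0.21 in PSC HT and was higher than in cancer cells by 1.17 ± 0.12. Atf4 read 7.23, 6.74 and 6.82 in PSC WT and 7.04, 6.96 and 6.99 in PSC HT and was higher by 0.51 ± 0.14 (adjusted p = 0.0167), the smallest difference of the 6 factors. With median centring this was 0.12 (0.57). Cebpb was higher by 0.99 ± 0.09.

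Among the effectors Trib3 read 5.07, 4.86 and 4.87 in PSC WT and 5.0, 5.04 and 5.16 in PSC HT, and was higher by 1.86 ± 0.11 (adjusted p = 7.11e-06). Sesn2 read 2.56, 2.17 and 2.21 in PSC WT and 1.98, 1.92 and 2.0 in PSC HT, against 0.67, 0.41 and 0.31 in control medium, 0.51, 0.64 and 0.54 in WT medium and 0.73, 0.46 and 0.64 in HT medium. Its PSC arrays lay more than 1 unit above all cancer cell arrays, with a difference of 1.85 ± 0.15 (adjusted p = 4.04e-05). Vldlr read 3.44, 3.58 and 3.51 in PSC WT and 3.57, 3.74 and 3.58 in PSC HT. In the cancer cells it read 1.96, 1.68 and 1.78 in control, 1.5, 1.59 and 1.27 in WT and 1.96, 1.39 and 2.10 in HT medium, and the difference was 1.70 ± 0.10 (adjusted p = 1.03e-05).

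Stc2 was the effector that was lower in PSC. It read -1.36, -1.83 and -1.79 in PSC WT and -1.11, -1.30 and -1.23 in PSC HT, against 0.12, -0.04 and -0.14 in control, -0.06, -0.22 and -0.18 in WT and -0.03, -0.31 and -0.08 in HT medium. The difference was -1.64 ± 0.15 (adjusted p = 8.47e-05). Chac1, at 4.07, 3.70 and 3.55 in PSC WT and 3.68, 3.51 and 3.55 in PSC HT, was higher by 1.30 ± 0.17 (adjusted p = 0.000482). This was against control medium, whereas the arrays of HT medium overlapped those of PSC. Ddit4 read 4.90, 4.38 and 4.67 in PSC WT and 4.55, 4.41 and 4.38 in PSC HT and was higher by 0.73 ± 0.14, or 0.35 with median centring (adjusted p = 0.107).

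In amino acid synthesis the routes to serine and to cysteine were each split, but this depended on the scaling. With median centring Psph and Cth were no longer called higher (adjusted p = 0.63 and 0.54 by limma), while Phgdh, Psat1 and Cbs stayed lower. Phgdh was lower in PSC, at -0.80 ± 0.13. Psat1 read 4.43, 4.02 and 4.13 in PSC WT and 4.31, 4.11 and 4.18 in PSC HT and was lower too, at -0.59 ± 0.12. Psph, the next step, read 3.77, 3.42 and 3.55 in PSC WT and 3.50, 3.47 and 3.52 in PSC HT and was higher by 0.49 ± 0.13, or 0.10 with median centring. Cbs read -2.35, -2.76 and -2.72 in PSC WT and -2.71, -2.60 and -2.52 in PSC HT, against -0.31, -0.10 and -0.18 in control, -0.24, -0.23 and -0.19 in WT and -0.35, -0.33 and -0.30 in HT medium. This was the largest gap toward the cancer cells, at -2.41 ± 0.14 (adjusted p = 6.70e-06), while Cth was higher in PSC by 0.53 ± 0.16, or 0.14 with median centring. Asns read 5.91, 5.46 and 5.57 in PSC WT and 5.77, 5.70 and 5.87 in PSC HT and was higher by 0.85 ± 0.14, or 0.46 with median centring (adjusted p = 0.0503). Pck2 was higher by 0.44 ± 0.15, or 0.06 with that centring, and Gpt2 lower, at -0.45 ± 0.13, where its second probe gave 0.10.

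The folate genes differed within the cycle. Aldh1l2 read 1.97, 2.05 and 1.94 in PSC WT and 1.73, 1.84 and 1.80 in PSC HT and was higher by 3.19 ± 0.13 (adjusted p = 1.39e-06), or 9.1-fold, with 3.31 and 3.88 at its other probes. Mthfd2 read 2.41, 2.29 and 2.28 in PSC WT and 2.42, 2.45 and 2.41 in PSC HT and was higher by 1.02 ± 0.10. Mthfd1l read -0.41, -0.40 and -0.71 in PSC WT and -0.28, -0.48 and -0.55 in PSC HT and was lower, at -0.56 ± 0.16. Shmt2, at 3.09, 2.77 and 2.73 in PSC WT and 3.19, 3.02 and 2.43 in PSC HT, differed by -0.20 ± 0.12 and did not pass on the 75th percentile scale.

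Of the transporters, 3 were higher in PSC and 1 lower. Slc7a11 read -1.83, -2.35 and -2.16 in PSC WT and -1.84, -2.07 and -2.13 in PSC HT, against 0.09, -0.31 and -0.11 in control, -0.14, 0.04 and -0.46 in WT and 0.31, -0.09 and 0.30 in HT medium. It was lower in PSC, at -2.0 ± 0.17 (adjusted p = 5.10e-05). Slc7a3 read 0.71, 0.74 and 0.69 in PSC WT and 0.25, 0.41 and 0.15 in PSC HT, against -1.01, -1.39 and -1.58 in control, -1.77, -1.58 and -1.72 in WT and -1.87, -1.49 and -1.58 in HT medium. It was higher in PSC, at 2.04 ± 0.15 (adjusted p = 2.66e-05). Slc7a5 was higher by 0.74 ± 0.21 and Slc3a2 by 0.58 ± 0.12, with 0.16 and -0.13 at the other Slc3a2 probes, and Slc7a1 differed by 0.05 ± 0.15. With median centring Slc7a5 and Slc3a2 stood at 0.36 and 0.20.

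Of the synthetases, Aars led with 4.68, 4.44 and 4.42 in PSC WT and 4.55, 4.55 and 4.54 in PSC HT and a difference of 1.41 ± 0.10 (adjusted p = 2.25e-05). A second probe gave 1.51, and 2 others, not well above background on any cancer cell array, read at least 2.56-fold and 1.23-fold higher in PSC WT (adjusted p over probes = 8.83e-05 and 0.00279). Yars read 2.64, 2.61 and 2.63 in PSC WT and 2.65, 2.64 and 2.63 in PSC HT and was higher by 0.75 ± 0.09, or 0.36 with median centring (adjusted p = 0.0544). Nars, Gars and Tars were higher by 0.46, 0.42 and 0.40, Sars by 0.46, Xpot by 0.50 and Eprs by 0.26. With median centring Nars, Gars and Tars stood at 0.08, 0.04 and 0.02, Sars at 0.07, Xpot at 0.12 and Eprs at -0.13. The second Sars probe, well above background on all PSC arrays and on 0 cancer cell arrays, was at least 2.83-fold higher in PSC WT (adjusted p over probes = 1.62e-05). Wars was lower, at -1.20 ± 0.12.

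The PSC levels of the other synthetases called in the media were as follows. Gars read 7.02, 6.63 and 6.73 in PSC WT and 6.79, 6.74 and 6.81 in PSC HT. Tars read 4.20, 4.08 and 3.97 in PSC WT and 4.10, 4.04 and 4.09 in PSC HT. Nars read 3.77, 3.61 and 3.51 in PSC WT and 3.59, 3.59 and 3.67 in PSC HT. For these 3 genes each PSC WT array was above each control array. Mars read 1.96, 1.78 and 1.80 in PSC WT and 2.05, 1.94 and 1.98 in PSC HT. Lars read 3.67, 3.54 and 3.42 in PSC WT and 3.70, 3.66 and 3.14 in PSC HT. Cars read 4.80, 4.52 and 4.59 in PSC WT and 4.75, 4.58 and 4.66 in PSC HT. Their differences, -0.20 ± 0.10, -0.13 ± 0.10 and 0.25 ± 0.11, did not pass, and neither did that of Iars, at -0.15 ± 0.12.

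PSC WT array 1, on slide 1, was the highest of its group in 37 of 42 members (88.1%), against 44.4% of all genes tested. Without it 34 members passed between the cell types and the median was 0.39. Within slide 1, which held only this PSC WT array, the median was 0.64, and within slide 2 it was 0.47. The medians over all genes were 0.11 and -0.04. All 36 called members but Eprs kept their sign in all 23 alternatives, many of which could not turn it, as their groups did not overlap.

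Outside the set, the lists differed by cell type in both directions. Of 11 other cytosolic synthetases and scaffold proteins 2 were higher in PSC and 7 lower (median -0.58), and of 17 mitochondrial synthetases 1 was higher and 15 lower (median -0.63). Qars and Vars, for glutamine and valine, stood at -1.09 and -1.08, and Vars2 and Pars2, for valine and proline in mitochondria, at -2.13 and -1.67. With median centring 0 and 9 of the former and 0 and 16 of the latter were higher and lower. Of 18 endoplasmic reticulum stress genes 15 were higher and 1 lower (median 0.72), led by Edem1 at 1.43 and Sel1l, its partner in protein disposal, at 1.35. With median centring the counts were 9 and 2.

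Among 22 eIF2 and ATF4 partner genes 7 were higher and 11 lower. Fgf21, a stress hormone, was not well above background in the control cancer cells and was at least 10.1-fold higher in PSC (adjusted p = 5.66e-08, means -2.22 and -7.66). Gdf15 was higher by 5.10 ± 0.11, and Myc lower, at -3.02 ± 0.12. Of 18 other one-carbon, serine and glycine genes 1 was higher and 11 lower (median -0.81), with Gldc, the glycine decarboxylase, at -7.14 ± 0.15 and Shmt1, the cytosolic partner of Shmt2, at -4.48 ± 0.12. Of 19 other amino acid transporters 11 were higher and 3 lower, with Slc7a8, a neutral amino acid light chain, at least 35.5-fold higher (adjusted p = 1.88e-07). Of 14 other synthesis and glutamine genes 3 were higher and 9 lower, with Ass1, which joins citrulline and aspartate, at 5.62 ± 0.13 and Prodh at -3.68 ± 0.10.

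Between heterozygous and wild-type PSC 1 of the 42 genes passed. In PSC HT against PSC WT 0 members were higher and 1 lower, with a median of 0.00, as over all genes. Of 20886 genes tested 7.73% passed, 2.95% higher and 4.78% lower. At an unadjusted p under 0.05 were 7 of 42 members, or 16.7%, against 22.2% of all genes, and 21 were above 0, against 49.4%. Further, 3 members were higher and 6 lower without overlap, against 29.1% of all genes tested (14.1% and 15%). The gene that passed was Slc7a3, whose values are given above: each PSC HT array lay below each PSC WT array, with a difference of -0.44 ± 0.09 (adjusted p = 0.0328). Its difference was -0.51 within slide 1 and -0.30 within slide 2. It passed in 9 of 23 alternatives and kept its sign in all 23, many of which could not turn it, as the groups did not overlap.

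The Slc7a3 call was lost without PSC WT array 1, 2 or 3 (adjusted p of 0.0751, 0.120 and 0.119) and without PSC HT array 1 or 3 (0.0937 and 0.0956), and with the slide as a block (0.0510). Median centring, no filter on dim probes, the replicate number as a block and 1 fit of all 5 groups lost it too. Among the 4 PSC arrays with a spike-in slope under 1 the difference was -0.30 (0.385). Without PSC WT array 1 Stc2 passed in its place, 0.60 higher in PSC HT (0.0291).

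Values of other members between the PSC genotypes stayed short of the threshold. Atf4 differed by 0.07 ± 0.14 (adjusted p = 0.832), Ddit3 by -0.19 ± 0.08 (0.225) and Nupr1 by -0.39 ± 0.12 (0.125). Stc2 differed by 0.45 ± 0.14 (0.127), Sesn2 by -0.35 ± 0.12 (0.15) and Phgdh by -0.30 ± 0.12 (0.22). Aldh1l2 differed by -0.20 ± 0.07 (0.169). Trib3, Chac1 and Asns differed by 0.13, -0.19 and 0.13. The second Ddit3 probe, at chr10:126731579-126731638 (mm9, plus strand), passed in the fit over probes, at -0.47 (adjusted p = 0.0427), where the brighter probe gave -0.19.

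Markers of other cells were set beside this comparison. Of 12 macrophage markers 11 were well above background in PSC WT and 11 to 12 in PSC HT, and their summed level was 5.75 to 6.09 in PSC WT and 6.68 to 7.64 in PSC HT. All 6 mesothelial markers were well above background, with a summed level of 5.28 to 5.59 in PSC WT and 3.39 to 4.10 in PSC HT, and 4 to 5 of 7 endothelial markers were, with 0.22 to 0.40 and -1.89 to -1.62, with Tek and Tie1 not well above background on any array. All 12 stellate cell and fibroblast markers were, and summed to 9.91 to 10.3 in PSC WT and 10.1 to 10.2 in PSC HT. The part of these markers in the Slc7a3 difference was not tested.

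In related pathways, of 18 other amino acid transporters 1 was higher in PSC HT and 2 were lower: Slc7a8 at 1.35 ± 0.16 (adjusted p = 0.00662), and Slc38a4 and Slc38a1, neutral amino acid carriers, at -1.37 ± 0.11 (adjusted p = 0.00172) and -0.41 ± 0.08 (adjusted p = 0.0334). Hars, the histidine synthetase, was higher by 0.66 ± 0.09 (adjusted p = 0.00854) and Aldh1l1, the cytosolic relative of Aldh1l2, by 0.78 ± 0.08 (adjusted p = 0.00402). Manf, a protein of the endoplasmic reticulum, was higher by 0.39 ± 0.08 (adjusted p = 0.0344) and Gpt, the cytosolic alanine aminotransferase, lower, at -0.40 ± 0.09 (adjusted p = 0.0423). Of 22 eIF2 and ATF4 partner genes and 17 mitochondrial synthetases 0 passed by limma, with 2 and 3 at an unadjusted p under 0.05.

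Probes of 1 gene did not always read alike. The brightest probe stood for its gene, and positions are those of the files, build mm9, and the exon a probe lies in was not examined. The probe used was at chr15:80087902-80087961 (plus strand) for Atf4, chr2:119179990-119180049 (plus) for Chac1, chr2:152163161-152163220 (minus) for Trib3, chr6:7625171-7625228 (minus) for Asns and chr6:83256518-83256577 (minus) for Mthfd2. The Ddit3 probe, chr10:126732518-126732821 (plus), and the Mars probe, chr10:126733940-126733999 (minus), belong to neighbours on opposite strands. Whether labelling told strands apart was not examined.

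In the media, the 5 Eprs probes gave -0.03, 0.39, 0.08, 0.03 and 0.03 in WT medium and -0.02, 0.34, 0.22, 0.17 and -0.06 in HT medium, none past the threshold over probes. The 2 Gpt2 probes gave -0.05 and 0.22 in WT medium. For both genes the probes disagreed in sign around 0. Between HT and WT medium the sign also differed among the probes of 6 genes. The Eprs probes gave 0.02, -0.04, 0.14, 0.14 and -0.09, and the Cars probes -0.06, -0.03 and 0.02. Those of Yars gave 0.04, 0.13 and -0.10 and those of Aars -0.03 and 0.23. Those of Wars gave 0.04 and -0.05 and those of Shmt2 0.05 and -0.12.

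Between PSC HT and PSC WT the 4 tested Aars probes gave 0.03, -0.26, -0.76 and -0.27, of which -0.76, at chr8:113580058-113580117 (plus strand), passed over probes (adjusted p = 0.0146). The last 2 of these were well above background on 3 PSC WT arrays but on 2 and 1 PSC HT arrays. Yars gave 0.01, -0.05 and 0.24, and Slc3a2 gave 0.09, -0.12 and 0.11. None of the latter passed. The Eprs probes gave -0.20, -0.06, -0.11, 0.06 and -0.14, those of Aldh1l2 -0.20, 0.01 and -0.20 and those of Cars -0.03, 0.03 and -0.01. The genes with 2 tested probes gave 0.13 and -0.0016 for Asns, 0.12 and -0.08 for Vldlr, -0.12 and 0.02 for Sars, and -0.03 and 0.10 for Wars. For Lars the values were -0.05 and 0.04, and for Atf5 -0.04 and 0.05.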

How the data were processed

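Total RNA of 6 stellate cell and 9 cancer cell samples was labelled with Cy3 and hybridised to 1-colour Agilent arrays. Per the file headers, the intensity of each spot was extracted with Agilent Feature Extraction 10.7.3.1 and corrected for background within the array. The labels state that labelling went through double-stranded cDNA. How the authors made the log2 values of their deposited series matrix is not given in the sources used here, and these values served as an alternative within a cell type only.

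From the intensity, log2 was taken and the 75th percentile of each array subtracted. Spots marked as outliers were left out, and repeated spots of a probe were averaged. Gene names were updated through RefSeq by accession for 32994 probes, by symbol for 10224 and by synonym for 519, while 12868 kept the name in the file. The brightest probe over all arrays stood for a gene. Groups came from the labels, and were compared with limma 3.58.1 (lmFit and eBayes, R 4.3.3) in 3 fits, of PSC, of cancer cells, and of PSC WT with control cancer cells, at an adjusted p of 0.05. The fits were tested on simulated data. Figures were drawn with matplotlib 3.10.9 in Python 3.11.15, and tables were handled with pandas 2.3.3, numpy 2.4.6 and, in R, data.table (1.17.8).

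The 42 genes and the pathway lists were chosen with earlier results of these data known, from general knowledge of the pathway, and 1 pathway gene is not reported here. Named with values on each array are Atf4, Ddit3, Trib3, Chac1, Asns, each member past the threshold within a cell type whose groups did not overlap, and the 12 with the largest called difference between cell types. Members whose probes differed in sign or by over 1 unit are shown with all tested probes. The alternatives were other background correction (normexp, offset 50), scaling, filters, probe summary, variance model, threshold (0.01 and 0.1) and fit, slide and replicate number as blocks, values within a slide, each array left out, and PSC HT in place of PSC WT. Those on the spike-in slope were chosen after seeing the data. Deviations of same-numbered samples of control and WT medium correlated at 0.23 to 0.33 over genes. Some samples with different numbers correlated alike: control 1 with WT medium 2 (0.25), 2 with 3 (0.24) and 3 with 1 (0.29). So these values do not show that the numbers are pairs. The fits hold no block. Where the replicate block ended a call in the media or in PSC, the blocked value is given at the end. Same-number correlations were -0.17 to 0.46 for control and HT medium, -0.32 to 0.33 for the media and -0.20 to 0.16 for PSC. The number of arrays limits the precision.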

Additional observations from a re-analysis of the deposited data

How the results depend on the processing

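Signs were kept in more alternatives than calls were, but many alternatives could not turn a sign. The thresholds, the variance model and the replicate block left each difference of a member as it was. The groups of every called member did not overlap, so leaving out an array or keeping to 1 slide could not turn its sign. All 15 members called in WT medium and all 19 called in HT medium kept their sign in 25 alternatives, Slc7a3 in PSC in 23 of 23, and 35 of 36 members between the cell types in 23. The exception was Eprs, at -0.13 with median scaling (adjusted p = 0.49). Median scaling moved the median of all genes between the cell types by -0.39 and quantile normalization by -0.11. Between HT and WT medium 0 members were called under every alternative, with 1 gene called among all under median scaling.

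The number of members called in WT medium, 15, was 6 with median scaling, 4 with no filter on dim probes, 9 with the mean over probes, 0 within slide 1 and 0 within slide 2, where fewer arrays entered, and 5 at an adjusted p of 0.01. In HT medium, 19, it was 9 with median scaling, 6 with no filter, 0 within each slide and 8 at an adjusted p of 0.01. Without the filter 37009 genes were tested in place of 19687. The causes of these changes were not tested. Leaving out 1 array at a time gave 5 to 16 in WT medium, 8 to 18 in HT medium, 0 to 1 in PSC and 33 to 34 between the cell types. In PSC, with 1 called member, the count was 0 with median scaling, with no filter and with the slide as a block. It was also 0 at an adjusted p of 0.01. The count was 2 with normexp and with 1 fit of all 5 groups, and 3 with quantile normalization and with the deposited value table. In the fit of all 5 groups Slc7a3 was not among the 2, of which 1 was higher and 1 lower.

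With the replicate number as a block, 14 members were called in WT medium, where Nupr1 was lost. In HT medium the count was 15, in PSC 0 and between the cell types 35. In HT medium the members lost were Nars, Psat1, Ddit4 and Gars, with adjusted p of 0.0653, 0.0619, 0.0544 and 0.0562, and in PSC it was Slc7a3, at 0.0756. The block changed no other call of a member in the media.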
